A study of Drosophila melanogaster with 12 samples.

Results

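The 7 genes described here, ea, Tl, Myd88, tub, pll, cact and dl, are the maternal Toll pathway genes that lead from the protease Easter to the transcription factor Dorsal. They were chosen by gene name, and all 7 were in the deposited table, out of 5421 distinct transcript records in all. The table lists a record only where it reached a value of 100 in every library, so each of the 7 was detected in all 12 libraries.

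The maternal Toll pathway sets the dorsal-ventral axis of the fly embryo. On the ventral side the protease Easter (ea) cuts the ligand Spätzle, which then activates the receptor Toll (Tl). Inside the egg the adaptors Myd88 and Tube (tub) bring the kinase Pelle (pll) to the receptor, Cactus (cact) is degraded, and Dorsal (dl) enters the ventral nuclei. The mRNAs of these genes are made during oogenesis and stored in the egg. The poly(A) tail of Tl mRNA is known to be lengthened at egg activation by Wispy (wisp), a cytoplasmic poly(A) polymerase.

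RNA from wild type flies (w1118) was compared with RNA from flies carrying wispKG5287, an allele that the labels call null. Each genotype was sampled as immature oocytes (oogenesis stages 9 to 10), mature oocytes (stage 14) and activated eggs aged 0 to 1 h, with 2 biological replicates in each of the 6 groups. Oocytes were dissected from females aged 3 to 4 days. The activated eggs were unfertilized, and per the labels' protocols they came from w1118 virgins mated to sterile sons of tud1 mothers and were collected at 25 °C. The protocol does not say separately how the mutant eggs were obtained.

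The values are the authors' normalised read counts. Their sum per library ranged from 11081267 to 14089899, and the depth of sequencing behind them is unknown. The wisp record lay between 3623 and 17226 in the 6 wild type libraries and between 189 and 718 in the 6 mutant libraries. All 14 germline markers examined were in the table, together with 7 of 7 nurse cell and ring canal markers. Of 24 follicle cell and eggshell markers, 7 muscle sheath markers and 6 haemocyte and fat body markers, 0 were listed. A record had to reach 100 in every library, so a marker high in only some groups would be missing. The absence of these markers therefore does not tell how many somatic cells any 1 group held. The replicates correlated over all records at 0.993 and 0.994 in wild type and mutant mature oocytes, at 0.957 and 0.914 in activated eggs, and at 0.828 and 0.858 in immature oocytes. A difference in a bulk sample cannot tell less RNA per oocyte from a different mix of cells.

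ea encodes the serine protease that acts last in the extracellular cascade (chromosome arm 3R, 15328729 to 15330408, plus strand, dm6). In wild type libraries its normalised read count was 585 and 860.1 in immature oocytes, 685 and 752 in mature oocytes, and 709 and 735 in activated eggs. In the mutant it was 554 and 757 in immature oocytes, 323 and 332 in mature oocytes, and 285 and 195 in activated eggs. The mutant mature and activated libraries were thus all below every other library, and the genotypes overlapped at the immature stage.

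Tl encodes the transmembrane receptor (3R, 26799041 to 26842403, plus strand). Its wild type values were 7096 and 1768 in immature oocytes, 5945 and 7861 in mature oocytes, and 6128 and 15097 in activated eggs. The mutant values were 5889 and 2428, then 10629 and 12015, then 7681 and 17358. Tl varied most between replicates: the libraries of a group differed 4.01-fold in wild type immature oocytes and 2.26-fold to 2.46-fold in mutant immature oocytes and both groups of activated eggs. The genotypes were apart in mature oocytes, where the mutant was higher.

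Myd88 encodes the adaptor that binds the cytoplasmic part of Toll (2R, 9302823 to 9308722, minus strand). Wild type libraries had 504 and 269 in immature oocytes, 603 and 717 in mature oocytes, and 599 and 1289.7 in activated eggs. Mutant libraries had 296 and 317, then 397 and 409, then 297 and 377. The mutant lay below the wild type without overlap in mature oocytes and activated eggs. The wild type egg value rested on libraries that differed 2.15-fold.

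tub encodes the adaptor between Myd88 and Pelle (3R, 4387742 to 4389813, plus strand). It varied least, 2.18-fold from the lowest library (769, wild type immature replicate 2) to the highest (1679, mutant mature replicate 2). Mature and activated libraries lay between 1185 and 1679 and immature libraries between 769 and 1016. The genotypes overlapped at each of the 3 stages.

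pll encodes the kinase that relays the signal to Cactus (3R, 27251131 to 27253182, minus strand). Wild type libraries had 640.2 and 863 in immature oocytes, 827 and 934 in mature oocytes, and 878 and 895 in activated eggs. The mutant had 553 and 667 in immature oocytes, 359.7 and 361 in mature oocytes, and 342 and 296 in activated eggs. As for ea, the 4 mutant mature and activated libraries were below all 8 others. The exons of pll share 31 nt of 1931 nt with TfIIA-L on the opposite strand, and whether strand was used in the counting was not stated in the labels.

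cact encodes the ankyrin-repeat inhibitor that holds Dorsal in the cytoplasm (2L, 16313036 to 16326207, minus strand). Its wild type values were 3654 and 2329.9 in immature oocytes, 4484 and 5433 in mature oocytes, and 4549 and 7278 in activated eggs. The mutant values were 2561 and 2109, then 5252 and 6254, then 4991 and 6807. In both genotypes the mature libraries were above the immature ones. Its exons share 62 nt of 3324 nt with fzy on the opposite strand.

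dl encodes the Rel-family transcription factor (2L, 17436830 to 17450364, minus strand). Wild type libraries had 675 and 385 in immature oocytes, 736 and 806 in mature oocytes, and 707 and 1159 in activated eggs. Mutant libraries had 614 and 510, then 655 and 675, then 497 and 669. The mutant was below the wild type without overlap at the later 2 stages. In activated eggs the nearest libraries of the genotypes were mutant replicate 2 (669) and wild type replicate 1 (707).

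**Figure D1:**
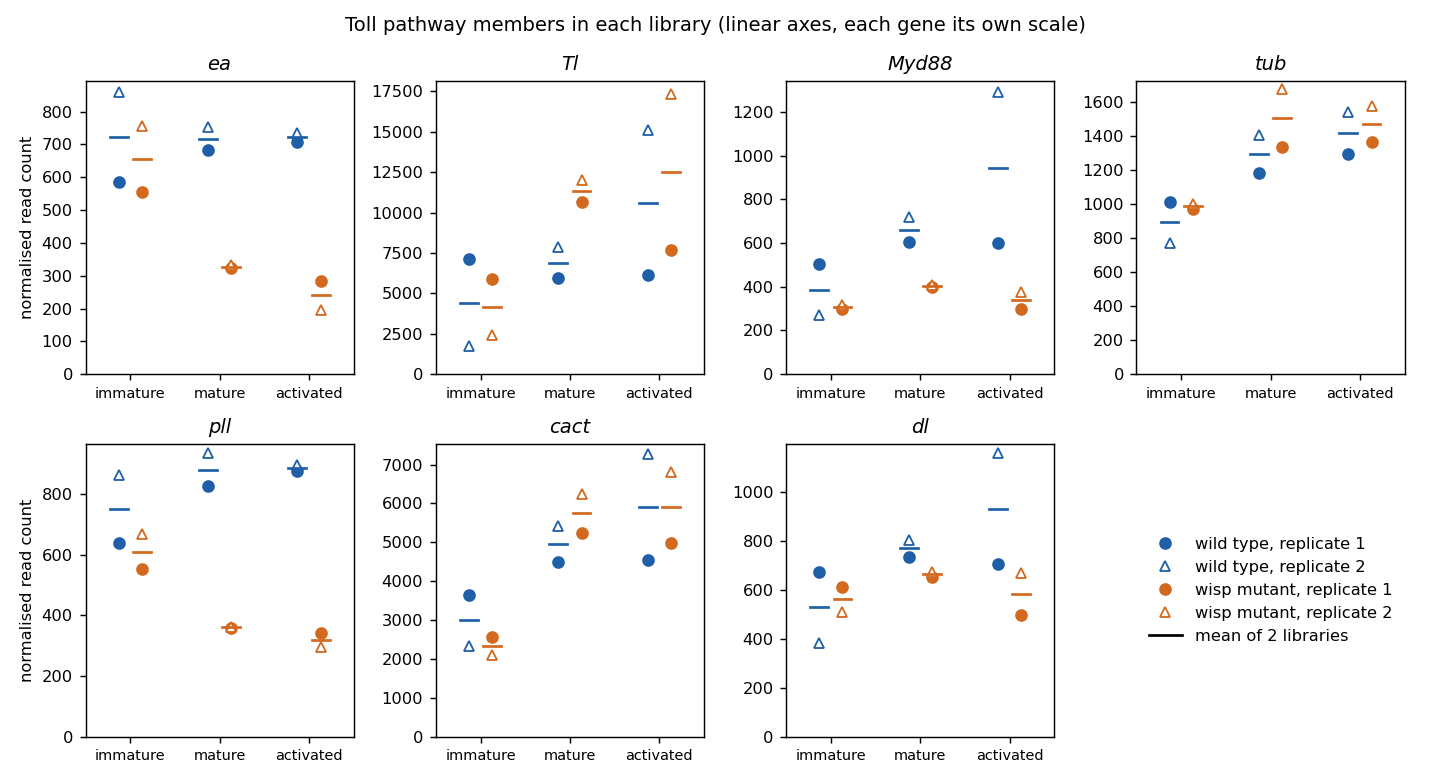
Normalised read count (linear y axis from 0, own scale for each gene) of the 7 genes in each of the 12 libraries, by stage, with wild type in blue, the wisp mutant in orange and the mean of 2 libraries as a line. The mutant mature and activated libraries of ea (195 to 332) and pll (296 to 361) sit below all others, while tub and cact overlap between genotypes at every stage.

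Levels were compared between genes only per kb of the canonical transcript in the annotation, which may not be the transcript the authors counted. In wild type mature oocytes the libraries had 2059 and 2494 per kb for cact, 1159 and 1533 for Tl, 591 and 701 for tub, 479 and 526 for ea, 429 and 484 for pll, 167 and 198 for Myd88, and 156 and 171 for dl. The neighbours ea and pll, and Myd88 and dl, overlapped there, while cact, Tl, tub and ea were apart in that order. cact had the highest level per kb in 11 of 12 libraries, and Tl in mutant activated replicate 2. In mutant mature oocytes ea (226 and 232 per kb), pll (186 and 187), dl (139 and 143) and Myd88 (110 and 113) did not overlap. dl was above Myd88 per kb in the mutant, and the order of these genes in wild type mature oocytes was not resolved. Among all records with a length, dl lay between the 4.59 and 15 percentile of the level per kb in a library, and cact between the 83.2 and 96.2 percentile.

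Mature oocytes show what the stored mRNA pool looks like without Wispy before activation. pll and ea were lower in the mutant, and the other 5 genes did not pass the test. pll, the kinase, was 2.44-fold lower (wild type 881 ± 75.5, mutant 360.6 ± 1.27, SD, n = 2), a log2 change of -1.28 with SE 0.186 (limma, adjusted p = 0.00442). ea, the protease, was 2.19-fold lower (718 ± 47.6 against 327 ± 6.10, SD, n = 2), a log2 change of -1.13 with SE 0.252 (limma, adjusted p = 0.0249). So 2 of 7 were called lower, where 9.37% of all records were called lower, and 0 of 7 were called higher, where 0.683% were (10.1% in either direction). By unadjusted p under 0.05 the count was also 2 of 7, and 1194 of 5421 over all records. The median log2 change of the 7 was -0.21, against -0.03 over all 5421 records. On the list of all changes from the lowest, pll stood at 171 and ea at 240 of 5421.

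The receptor Tl was 1.64-fold higher in the mean of the mutant mature libraries (11322 ± 980 against 6903 ± 1355, SD, n = 2), with no overlap, but its log2 change of 0.73 had an SE of 0.742 in the fit that pools the spread of all 6 groups (limma, adjusted p = 0.723). Myd88 was 1.64-fold lower in the mean, at a log2 change of -0.71 with SE 0.381 (limma, adjusted p = 0.343). In a limma fit of the 4 mature libraries alone both passed, Tl higher (adjusted p = 0.00331; range over 10 alternatives 0.00257 to 0.818) and Myd88 lower (adjusted p = 0.00206; range 0.00206 to 0.683), and each passed in 3 of the 10. The groups of 4 genes did not overlap with the mutant lower (ea, Myd88, pll and dl), as in 39.9% of all records, and those of Tl did not with the mutant higher, as in 30.2%. The changes of tub (0.21), cact (0.22) and dl (-0.21) had SEs of 0.211, 0.315 and 0.317. The call of ea was lost with TMM scaling (adjusted p = 0.0568), with quantile normalisation (0.297; range over 10 alternatives 4.29e-05 to 0.297) and without any single library of the 4 (0.119 to 0.186). That of pll was lost with quantile normalisation (0.123; range over 10 alternatives 5.50e-06 to 0.123) and without wild type mature replicate 2 (0.0630).

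In activated eggs 3 of the 7 genes were lower in the mutant and 0 higher, where 17.7% of all records were called lower and 7.3% higher, or 25% in either direction. ea was 3.01-fold lower (wild type 722 ± 18.6, mutant 239.7 ± 63.6, SD, n = 2), a log2 change of -1.61 with SE 0.252 (limma, adjusted p = 0.00504). pll was 2.78-fold lower (886 ± 12.2 against 319 ± 32.5, SD, n = 2), a log2 change of -1.47 with SE 0.186 (limma, adjusted p = 0.00222). Myd88 was 2.80-fold lower (944 ± 488 against 337 ± 56.5, SD, n = 2), a log2 change of -1.39 with SE 0.381 (limma, adjusted p = 0.0318). The median change of the 7 was -0.65, against -0.16 over all records. ea and pll kept their calls in each of the 10 alternative fits and without any single library of the 4.

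The call of Myd88 in activated eggs depended on single libraries. Its log2 change was -0.84 without wild type activated replicate 2 (adjusted p = 0.208), -1.22 without mutant activated replicate 1 (0.119) and -1.56 without mutant activated replicate 2 (0.0857), and the call was lost each time. It was also lost with quantile normalisation (adjusted p = 0.0684; range over 10 alternatives 3.38e-05 to 0.0684). Long transcripts were lower in mutant eggs as a class. Records of 3463 to 4864 nt, among them Myd88 (3613 nt) and dl (4724 nt), had a median log2 change of -0.53, and those of 4864 nt and over, among them Tl (5129 nt), -0.76. With the length trend removed from each library the change of Myd88 was -0.87 (adjusted p = 0.0458) and that of dl went from -0.65 to -0.02 (adjusted p = 0.169 and 0.950), while Tl went from 0.26 to 0.94 (0.841 and 0.364). ea (1430 nt) and pll (1931 nt) were at -1.68 and -1.36 with that correction, and records of their length classes had medians of 0.03 and -0.02 without it. The part of transcript length in the values of Myd88 and dl was not tested beyond this.

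The groups of ea, Myd88, pll and dl did not overlap in activated eggs either, with the mutant lower, as in 38.9% of all records, and 0 of the 7 were higher without overlap, as 21.4% were. tub and cact had log2 changes of 0.05 (SE 0.211) and 0.02 (SE 0.315). Their libraries and those of Tl overlapped between genotypes.

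Among markers of the germ line that sheds its contents into the oocyte, 3 of 7 nurse cell and ring canal genes were also lower in mutant eggs, where 17.7% of all records were. They were the ring canal gene kel (-1.43), the filamin gene cher (-1.11) and the adducin gene hts (-0.83), with adjusted p of 0.0167, 0.0159 and 0.0343 in limma. The rest of the 7 were not called and went both ways: chic at 1.06, sn at 0.06, qua at -0.06 and Src64B at -0.39. The transcripts of kel, cher and hts are longer than 4864 nt, and records of that length class had a median log2 change of -0.76 in activated eggs. The part of transcript length in the values of these markers was not tested. The summed share of the 7 markers was 0.138% to 0.203% in wild type eggs and 0.102% to 0.203% in mutant eggs, so the groups overlapped. In mature oocytes it was 0.154% to 0.161% and 0.158% to 0.159%. There limma called 0 of the 7 markers, where 10.1% of all records were called. At an unadjusted p under 0.05 the count was also 0 of 7, and 1194 of 5421 over all records. Of 14 germline markers 1 was called in eggs, where 25% of all records were called in either direction. It was osk, which was higher in the mutant (0.56, limma, adjusted p = 0.0474), as 7.3% of all records were. The summed share of the 14 was 0.756% to 0.938% in wild type and 0.807% to 1.36% in the mutant. Records with a noncoding accession held 22.6% and 21.4% of the summed value in the mutant egg libraries and 14.9% and 10.4% in the wild type ones, without overlap, while in mature oocytes they held 14.9% and 16.3% against 13.01% and 16.4%. In immature oocytes such records held 18.5% and 16.7% in the mutant and 25.8% and 16.3% in wild type, with overlap. The noncoding share thus also differed widely between the 2 wild type immature libraries. The part of these markers and of the noncoding share in the values of ea, pll and Myd88 was not tested.

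**Figure D2:**
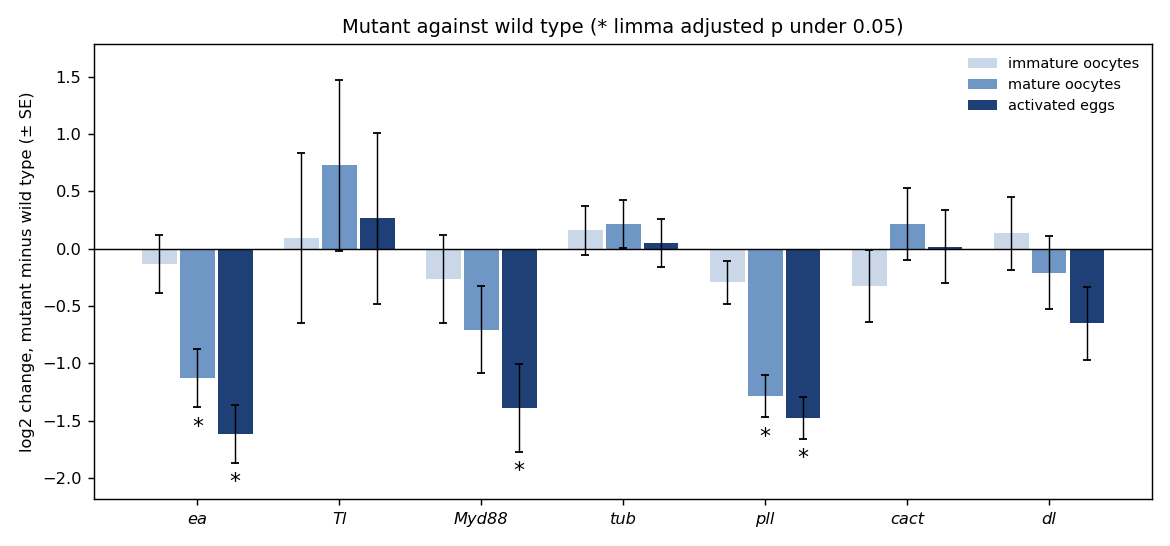
Log2 change of each gene in the mutant against wild type (y axis, ± SE from limma, 2 libraries a group) at the 3 stages, with an asterisk for an adjusted p under 0.05. ea and pll pass in mature oocytes and activated eggs and Myd88 in activated eggs, and no bar passes in immature oocytes.

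In immature oocytes the groups of all 7 genes overlapped between genotypes. Their log2 changes lay between -0.33 (cact) and 0.16 (tub). limma called 0 of 7, and 0.111% of all records were called (0.0369% higher and 0.0738% lower). The count at an unadjusted p under 0.05 was 0 of 7, and 373 of 5421 over all records. Among all records the groups did not overlap in 15.9% with the mutant higher and in 7.78% with it lower. ea and pll, lower in the mutant at the later stages, had changes of -0.13 (SE 0.252) and -0.29 (SE 0.186) here. Without 1 library the sign turned for ea, Tl, Myd88, tub and dl, so no direction is given for them at this stage.

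From immature to mature oocytes, 3 of the 7 genes changed in the mutant. cact rose 2.46-fold (2335 ± 319 to 5753 ± 709, SD, n = 2), a log2 change of 1.30 with SE 0.315 (limma, adjusted p = 0.0305). ea fell 2.00-fold (655.7 ± 144 to 327 ± 6.10, SD, n = 2), a log2 change of -0.98 (limma, adjusted p = 0.0376). pll fell 1.69-fold (609.7 ± 80.9 to 360.6 ± 1.27, SD, n = 2), a log2 change of -0.75 (limma, adjusted p = 0.0333). Of all records 1.68% were called higher and 11.4% lower, or 13.1% in either direction. These changes share the mutant mature libraries with the comparison between genotypes. None of the 3 calls held without mutant immature replicate 2 (adjusted p = 0.137 to 0.176), and without a mature library of the mutant they were lost too (0.123 to 0.189). Without mutant immature replicate 1 ea kept its call (0.0485) and cact and pll did not (0.0651 and 0.0554). cact held in 9 of 11 alternative fits, and ea and pll in 4 of 11 each.

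In wild type the same step gave 0 calls among the 7 and 0% among all records with limma, with 2 of 7 at an unadjusted p under 0.05 (tub and cact) and 522 of 5421 records. All 7 changes were positive, from 0.02 for ea and 0.24 for pll to 0.95 for Tl, with a median of 0.59 against 0.14 over all records. The groups of Myd88, tub, cact and dl did not overlap and were higher in mature oocytes, as in 25.9% of all records. In the mutant those of Tl, Myd88, tub, cact and dl were higher without overlap, as in 32.8%, and those of ea and pll lower, as in 34.4%. In wild type 17.4% of all records were lower without overlap, and 0 of the 7. The Tl value rested on wild type immature replicate 2, without which its change was -0.054 and not 0.95.

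Whether the step differed between genotypes was tested as an interaction. The change in the mutant was lower by 0.99 for pll (SE 0.263, limma, adjusted p = 0.131) and by 1.00 for ea (SE 0.356, limma, adjusted p = 0.271), on the log2 scale. limma called 0 of the 7 and 1.03% of all records. The count at an unadjusted p under 0.05 was 2 of 7 (ea and pll), and 646 of 5421 over all records. A difference between the genotypes in this step was therefore not shown for any of the 7.

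**Figure D3:**
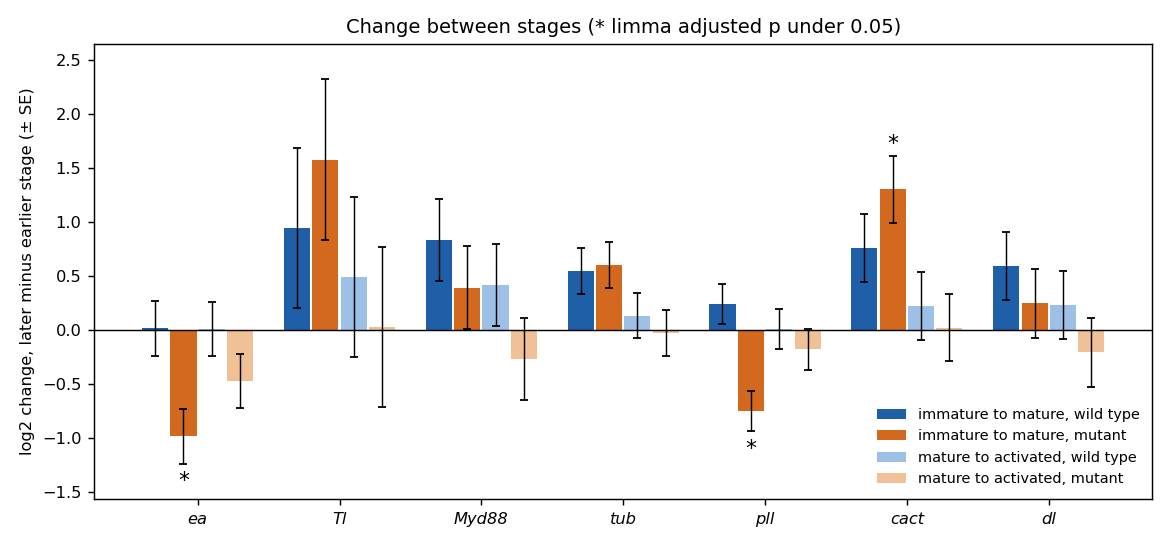
Log2 change of each gene from one stage to the next (y axis, ± SE from limma, 2 libraries a group) in wild type (blue shades) and the mutant (orange shades), with an asterisk for an adjusted p under 0.05. The asterisks stand at the step from immature to mature oocytes in the mutant, for ea (-0.98), pll (-0.75) and cact (1.30).

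At egg activation, from mature oocyte to activated egg, limma called 0 of the 7 genes in either genotype, with 0 at an unadjusted p under 0.05. It called 0.0553% of all records in wild type and 0.0184% in the mutant. At an unadjusted p under 0.05 it was 165 of 5421 records in wild type and 300 in the mutant. In wild type the groups of all 7 overlapped, whereas 18.1% of all records were higher and 25% lower without overlap, and the log2 changes of ea and pll were both 0.01. In the mutant ea (-0.47, SE 0.252), Myd88 (-0.27, SE 0.381) and pll (-0.18, SE 0.186) did not overlap and were lower in eggs, as in 24.9% of all records, and 0 of the 7 were higher, as 13.7% were. The test of a difference between genotypes in this step called 0 of the 7 and 0% of all records (limma; 0 of 7 and 444 of 5421 at an unadjusted p under 0.05). Tl itself, whose tail is lengthened at this step, had log2 changes of 0.49 in wild type and 0.03 in the mutant, each with an SE of 0.742. Both signs turned without 1 library, with ranges of -0.16 to 1.14 and -0.56 to 0.62. bcd and tor, 2 other maternal mRNAs known for tail lengthening at activation, had changes of 0.03 and 0.32 in wild type and -0.17 and 0.05 in the mutant, and neither passed in any comparison.

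Ratios within a library do not change when a library is scaled by 1 factor. The inhibitor to factor ratio, cact over dl per kb, was 13.2 and 14.6 in the wild type mature libraries and 17.4 and 20.1 in the mutant ones. In activated eggs it was 14.0 and 13.6 in wild type and 21.8 and 22.1 in the mutant, and in immature oocytes 11.7 and 13.1 against 9.04 and 8.97. The genotypes thus stood apart at each stage, with the mutant lower in immature oocytes and higher later. These ratios were not put to a test, and how often ratios of other records stood apart was not counted. In immature oocytes the groups of cact and of dl each overlapped between genotypes. In activated eggs the log2 change of dl between genotypes was -0.65, and -0.02 with the length trend removed. That of cact lay between 0.018 and 0.225 over 10 alternative fits. The part of transcript length (2178 nt for cact, 4724 nt for dl) in the ratios was not tested beyond this.

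The kinase to adaptor ratio, pll over tub per kb, was 0.726 and 0.690 in wild type mature oocytes and 0.280 and 0.224 in the mutant. In activated eggs it was 0.702 and 0.602 against 0.261 and 0.195. In immature oocytes it was 0.655 and 1.17 against 0.591 and 0.691, so the genotypes overlapped. ea over pll, both low in the mutant, lay between 0.887 and 1.53 in all 12 libraries.

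**Figure D4:**
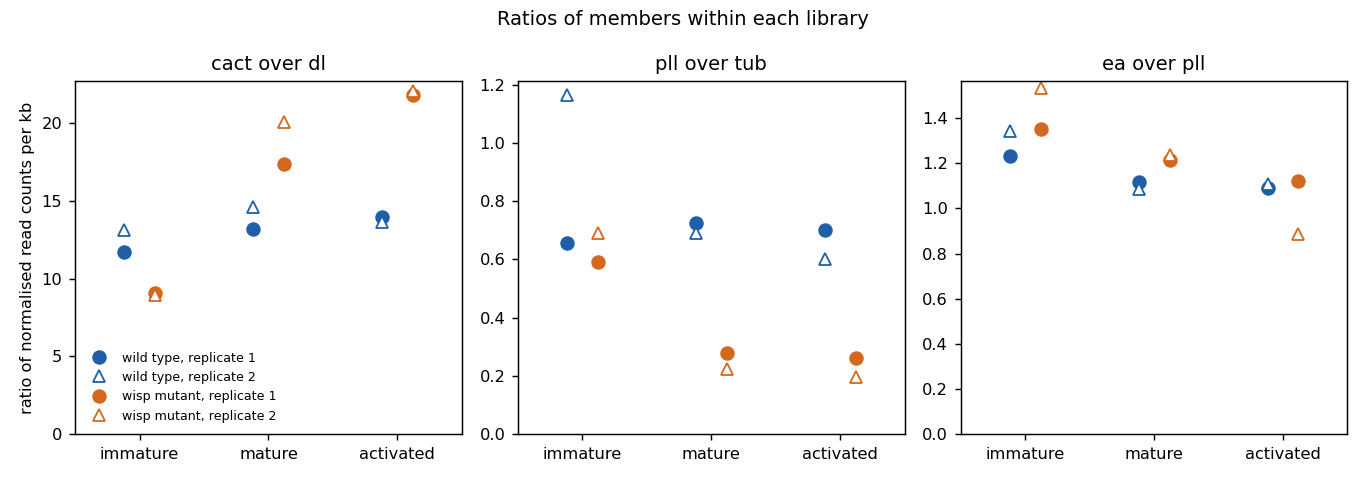
Ratio of normalised read counts per kb (linear y axis from 0) of cact over dl, pll over tub and ea over pll in each library, by stage, with wild type in blue and the wisp mutant in orange. cact over dl is higher and pll over tub lower in the 4 mutant mature and activated libraries than in the wild type ones, and ea over pll stays between 0.887 and 1.53.

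Over the 12 libraries the genes fell into pairs and a trio by likeness of pattern (Pearson's r of log2 values, given as a description since libraries of a group share their stage and genotype). ea and pll correlated at 0.960, Myd88 and dl at 0.916, tub and cact at 0.928, cact and Tl at 0.909, and Tl and tub at 0.880. The pairs and the trio were not fully separate. dl also correlated with Tl (0.719), cact (0.694) and tub (0.646), and Myd88 with cact (0.594) and pll (0.513). ea correlated negatively with Tl (-0.630), tub (-0.561) and cact (-0.507). By the rule of the 2 most alike records with a gene name, ea was most like defl (0.997) and SIDL (0.995), pll like wda (0.993) and hd (0.992), Tl like inaE (0.996) and cad (0.993), and Myd88 like Eaf (0.981) and Brf (0.977). dl was most like Lk6 (0.986) and LpR1 (0.969), cact like Msh6 (0.983) and TAF1C-like (0.977), and tub like fbl6 (0.967) and put (0.962). Such values were common: of 3300 named records 535 correlated at 0.9 or more with Tl, 289 with ea and 54 with tub.

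**Figure D5:**
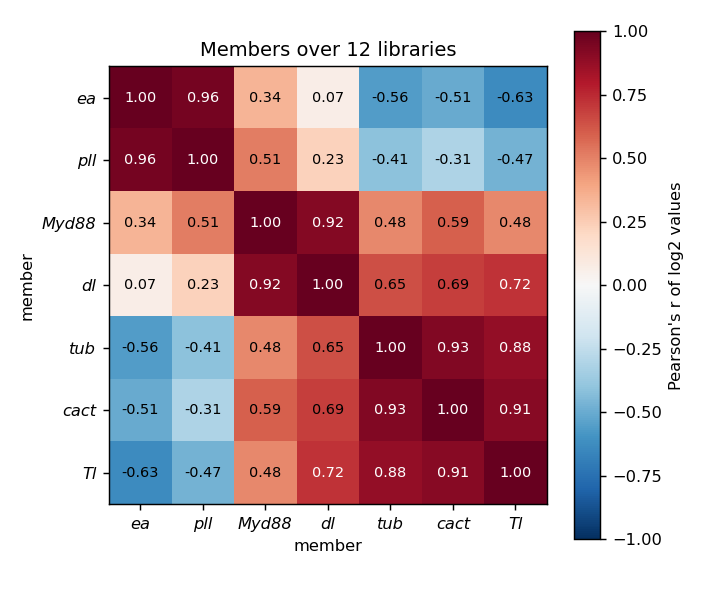
Pearson's r of log2 values over the 12 libraries for each pair of the 7 genes (colour scale from -1 to 1, each value printed). ea and pll (0.96) and Myd88 and dl (0.92) form pairs, and tub, cact and Tl form a trio (0.88 to 0.93). ea is negatively correlated with that trio, while dl is positively correlated with it (0.65 to 0.72).

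The rest of the dorsal group, which makes the ventral signal outside the egg or places it, was represented by 10 of 16 genes looked for. ndl, pip, wbl, snk, Egfr and mirr were not in the table. In mature oocytes 0 of the 10 differed between genotypes in limma, where 10.1% of all records did. At an unadjusted p under 0.05 it was 1 of the 10, and 1194 of 5421 over all records. The median log2 change was 0.16. By mean value, not corrected for length, the highest were sqd, an RNA-binding protein that localises gurken mRNA (log2 change 0.39), and cic, a transcriptional repressor (log2 change 0.20). In activated eggs Papss, which makes the sulfate donor of the ventral cue, was lower in the mutant (-0.91, SE 0.277, limma, adjusted p = 0.0439) and cni, needed for the export of Gurken, was higher (0.72, SE 0.194, limma, adjusted p = 0.0302). So 1 of the 10 was called lower and 1 higher, where 17.7% of all records were lower and 7.3% higher. In the mutant Papss also fell from immature to mature oocytes (-1.46, limma, adjusted p = 0.0123), a step where 11.4% of all records were called lower. The ligand gene spz had 997 and 1193 in wild type and 938 and 1115 in mutant mature oocytes, with overlap between the genotypes.

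Of 35 genes looked for as intracellular regulators of Toll, Cactus or Dorsal 34 were in the table. Of these Rel, key, ird5, Tak1 and Tab2 belong to the separate Imd immune pathway. In mature oocytes 1 was lower in the mutant and 0 higher, where 9.37% of all records were called lower and 0.683% higher. The gene was Rel, the Rel-family factor Relish (1212 and 1252 in wild type, 409 and 368 in the mutant, log2 change -1.66, SE 0.239, limma, adjusted p = 0.00426). In activated eggs 5 of the 34 were lower and 2 higher, where 17.7% of all records were lower and 7.3% higher, and the median of the 34 was -0.19 against -0.16 over all records. The list thus stood near the background, and its called genes are named as single values. Rel was at -2.59, Nup214, a nuclear pore protein, at -1.72, cactin, a Cactus-interacting protein, at -1.23, and Hrs, an endosomal sorting protein, at -0.83. Roc1a and skpA, subunits of the ubiquitin ligase family that includes the one acting on Cactus, were higher at 0.75 and 0.72, and the seventh, the cullin Cul1, was lower at -0.71. The largest limma adjusted p of these 7 was 0.0353. In the mutant Rel (-1.24) and cactin (-0.83) also fell from immature to mature oocytes (limma, adjusted p = 0.0127 and 0.0318), as ea and pll did. Of all records 11.4% were called lower in that step. In immature oocytes limma called 0 of the 34 and 0 of the 10, where 0.111% of all records were called. At an unadjusted p under 0.05 the counts were 0 and 1, and 373 of 5421 over all records. Of 17 other Toll receptors and Spätzle-like ligands only Tollo was in the table (-0.69 in activated eggs, limma, adjusted p = 0.150), and of 15 zygotic Dorsal targets 0 were. Of 4 mRNAs known to be adenylated at activation (bcd, tor, hb and Tl) 0 were called in any of the 9 comparisons by limma.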

How the data were processed

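RNA was measured in 12 libraries, 2 for each of 6 groups. Per the labels' protocols, TRIzol total RNA received ERCC spike-ins, was depleted of ribosomal RNA with Ribo-Zero and made into TruSeq RNA v2 libraries. The deposited signal values are read counts normalised by the authors by a method not given in the sources used here. Tools named in the submitters' processing notes are RSEM 1.2.25, HTSeq and STAR 2.4.2a, with build dm6. Of 5422 records 1 identical duplicate was removed, and 0 were ERCC rows. No step turned the values into whole reads (best 15.3% within 0.05, chance 10%), so depth is unknown and no counting interval is given. Tests used log2(value + 1), the scale of every log2 change given, while folds are ratios of group means. One limma fit (limma 3.58.1, R 4.3.3, intensity trend, 6 group means, no block, 6 residual and 2.43 prior degrees of freedom) gave 9 contrasts, with Benjamini-Hochberg adjustment over 5421 records and a threshold of 0.05. With 2 libraries a group, the error rests on pooling over groups. Gene models came from Ensembl 115 (dm6 coordinates): 5391 records matched RefSeq genes by accession and 5406 had a transcript length. Named genes were the 7 members, wisp, called members of each list (at most 6 a comparison, otherwise the most abundant 2) and the 2 most alike records per member. bcd, tor, hb, spz, Tollo and Cul1 were named besides, after their values were seen. Members and lists were chosen with earlier results of these data known. The code was tested on simulated data. Alternatives were another pseudocount (10), a mean of at least 500, 3 scalings, fits of fewer groups, replicate blocks, a length correction and leaving out each library.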

Additional observations from a re-analysis of the deposited data

How the results depend on the processing

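Of the 7 genes 2 were called in mature oocytes between genotypes. The count was 1 with TMM scaling (pll), 0 with quantile normalisation, 4 in a fit of the mature groups alone (ea, Tl, Myd88, pll), and 0 to 1 without 1 library. From immature to mature oocytes of the mutant it was 3, and 1 with a mean of at least 500, 1 with TMM scaling and 1 with quantile normalisation (cact each time), 0 with only these groups in the fit, and 0 to 1 without 1 library. In activated eggs the 3 calls went to 2 to 4. The cause of these shifts was not tested. Same-numbered libraries deviated together within a stage (r = 0.849, 0.483 and 0.771) and opposite between immature and other stages (-0.938 to -0.310), and the labels tie the numbers to no shared batch. A replicate block within each stage gave 4 calls in mature oocytes (ea, Tl at adjusted p = 0.01997, Myd88 at 0.0184, pll), 4 in activated eggs (ea, Myd88, pll, dl at 0.00383), 5 in the mutant and 5 in the wild type step from immature to mature, and 2 for the difference of that step between genotypes (ea, pll). Between stages this block takes the replicate spread of a stage out of the error. With the length trend also removed these counts were 4, 4, 5, 5 and 3, and in activated eggs Tl (higher at 0.94, adjusted p = 0.000717) took the place of dl. The share of all records called under the block within each stage is not given here. Its counts are therefore not read as particular to the 7 genes. A block over all stages gave 0 calls in the mutant step. A block with crossed numbers, chosen after seeing the data, called 144 records in the wild type and 646 in the mutant step. Leaving out 1 library turned the sign of uncalled changes in activated eggs, for Tl (-0.39 to 0.91), tub (-0.074 to 0.18) and cact (-0.32 to 0.36). It did so in the wild type step from immature to mature for ea (-0.26 to 0.29) and Tl (-0.054 to 1.95). There ea was also at -0.085 (TMM scaling), -0.081 (median-of-ratios), -0.22 with quantile normalisation and -0.062 with the length trend removed, with or without the block within each stage. In the mutant step dl was at -0.15 with the length trend removed, with or without that block. In immature oocytes the left-out ranges that cross 0 were those of ea (-0.41 to 0.15), Tl (-0.91 to 1.10), Myd88 (-0.72 to 0.19), tub (-0.041 to 0.36) and dl (-0.27 to 0.54). At activation in wild type they were those of ea (-0.059 to 0.076), Tl (-0.16 to 1.14), Myd88 (-0.13 to 0.97), pll (-0.076 to 0.099), cact (-0.12 to 0.56) and dl (-0.12 to 0.59). In the mutant they were those of Tl (-0.56 to 0.62), tub (-0.19 to 0.14), cact (-0.20 to 0.25) and dl (-0.42 to 0.0090). Wild type activation changes also turned for ea (-0.066, -0.0054) and pll (-0.063, -0.0026) under TMM and median-of-ratios scaling, and for dl (-0.0018) with the length trend removed. Those of the mutant turned for Tl (-0.015) with quantile normalisation, for tub under TMM (0.046), median-of-ratios (0.10) and quantile (0.082) scaling, and with the length trend removed for tub (0.038), Myd88 (0.022) and dl (0.17), with the same values under the block. The changes in immature oocytes and at activation passed under none of these alternatives. Not per kb, cact was the highest of the 7 genes in 1 of 12 libraries instead of 11. Losses below a value of 100 are not seen in these data.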
